A study of Mus musculus with 12 samples.

Results

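Coenzyme Q (ubiquinone) is the lipid that carries electrons through the inner mitochondrial membrane, and the 10 genes described here make it or handle it: Coq2, Coq3, Coq4, Coq5, Coq6, Coq7, Coq8a, Coq9, Coq10a and Coq10b. They were chosen by name, and all 10 were found once each among the 54356 genes to which the measured transcripts belong. Interscapular brown adipose tissue, the heat-producing fat between the shoulder blades, came from 12 wild type male mice of the C57BL/6N strain, 20 weeks old. There were 6 cold animals (mice 4, 7, 11, 12, 15 and 16) and 6 ctrl animals (mice 2, 5, 6, 9, 10 and 14), and every animal gave 1 library of polyA RNA read in 50 nt pairs. The treatment text, which describes single housing at 4 °C over 24 h, stands on the ctrl animals too and is taken here to describe the cold group. The colony was kept at 22 to 24 °C, and the last day of the ctrl animals has no text of its own, so that single housing and cold cannot be told apart if the ctrl animals were housed together. The design text counts 3 cold animals where the labels count 6, and the extraction text names another fat depot, eWAT. Each animal has its own mouse number, so the p-values below measure the spread between animals.

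The coenzyme Q molecule joins a ring, derived from tyrosine, to a long isoprenoid tail built by the tail synthase of Pdss1 and Pdss2. Coq2 attaches the tail to the ring, and enzymes of the inner membrane then hydroxylate, methylate and decarboxylate the ring. Brown fat mitochondria oxidise large amounts of fatty acid, and the electrons reach the respiratory chain through coenzyme Q, which dehydrogenases such as complex I and complex II reduce and complex III oxidises.

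Cold and ctrl differed little at these 10 genes. One member, the methyltransferase Coq3, rose in cold, 2 members, Coq2 and Coq6, fell, and 7 did not pass the test. That is 30% of the members called at an adjusted p under 0.05 (edgeR's quasi-likelihood test, Benjamini-Hochberg adjustment over 13876 genes), against 31.6% of all genes tested. The median log2 fold change was -0.01 over the members and -0.01 over all genes tested. Elsewhere in the pathway, Hpdl, a gene of ring precursor synthesis, and Pdss1 rose by far more than any member. Both are described further on.

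Upstream sequence is shown for Coq3, the member that rose, and for the tail synthase gene Pdss1. Each is the 250 bases before a RefSeq start on GRCm38.p6, written 5′ to 3′ on the strand of the gene, and lies outside the gene as GENCODE M21 annotates it. The RefSeq stretches of Coq2, Coq6 and Hpdl overlap the annotated genes and are not printed. Capitals mark a match, on either strand, to 1 of 4 motifs searched: AAGGTCA (a half-site of nuclear receptors such as the estrogen-related receptors), TGACGTCA (the cAMP response element), the palindromic site of NRF1 and GGGCGG (the GC box of Sp1).
Coq3, chr4:21879396-21879645, plus strand: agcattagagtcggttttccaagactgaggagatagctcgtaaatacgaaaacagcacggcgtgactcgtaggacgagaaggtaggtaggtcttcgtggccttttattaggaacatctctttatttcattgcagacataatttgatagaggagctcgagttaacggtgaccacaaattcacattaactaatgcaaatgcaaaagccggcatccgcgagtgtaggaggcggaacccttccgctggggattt
Pdss1, chr2:22895272-22895521, plus strand: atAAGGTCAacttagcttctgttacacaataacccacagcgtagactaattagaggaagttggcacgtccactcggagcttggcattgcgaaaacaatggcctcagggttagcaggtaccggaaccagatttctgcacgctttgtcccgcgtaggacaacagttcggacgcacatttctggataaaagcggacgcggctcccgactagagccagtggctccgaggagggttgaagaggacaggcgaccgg
The stretch of Coq3 holds none of the 4 motifs. AAGGTCA stands near the far end of the Pdss1 stretch. Over full RefSeq windows of 300 bases, which were at hand for 9 members and not for Coq5, AAGGTCA was found for 1 of 9 members (Coq10a), against 5.38% of 27025 genes. The cAMP response element was found for 0 of 9 members and 2.03% of genes. The NRF1 site was found for 1 of 9 (Coq3, at its second start) and 5.19% of genes. GGGCGG was found for 4 of 9 (Coq3, Coq6, Coq8a and Coq9) and 38.2% of genes. These matches describe letters in a window and say nothing about binding.

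Levels are given as CPM, the estimated reads of a gene scaled to a common library total, with library sizes adjusted by TMM. Members had between 272 and 23565 estimated reads in a library, the lowest being those of Coq4. Total reads per library ran from 15984872 to 31423954. The 8 brown adipocyte markers were all present, at a summed 14240 to 18116 CPM in cold and 9661 to 15886 CPM in ctrl. The 10 skeletal muscle markers summed to 150.3 to 4338 CPM in cold and 113.5 to 1435 CPM in ctrl, highest in cold 15, and none of the 10 passed the test. Markers of white adipocytes summed to 376 to 604 CPM in cold and 83.9 to 251 CPM in ctrl, so the groups did not overlap, with 1 of 4 tested markers called (Npr3, higher, log2 fold change 2.34). The median over the 4 tested was -0.21, with Lep, Nnat and Hoxc8 at -1.07, -0.38 and -0.05 and not called, and Hoxc9 and Tcf21 were under 1 CPM. Endothelial, macrophage, smooth muscle and pericyte, and Schwann cell markers summed to 632 to 826, 17.0 to 24.1, 275 to 346 and 70.9 to 93.5 CPM in cold, and to 613 to 822, 13.7 to 23.5, 381 to 477 and 63.4 to 117 CPM in ctrl. The 4 T cell markers each averaged under 1 CPM, summing to 0.743 to 2.86 CPM in cold and 1.31 to 3.12 CPM in ctrl. Of the brown adipocyte markers 3 rose, of the smooth muscle and pericyte markers 2 fell, of the endothelial markers 1 rose and 1 fell, and of the macrophage markers 1 rose. The part of these cell types in the results below was not tested, beyond skeletal muscle as a covariate. In tissue of mixed cells, fewer cells of a type and less RNA per cell cannot be told apart.

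Coq2, the prenyltransferase that joins ring and tail, fell in cold. Its lowest, median and highest levels were 41.7, 47.2 and 53.4 CPM in cold, against 52.6, 57.3 and 60.8 CPM in ctrl. The groups overlapped, and 5 of 6 cold libraries lay below every ctrl library. The log2 fold change was -0.27 ± 0.07 (SE; adjusted p = 0.00666, edgeR), which makes the level 1.20-fold lower in cold. The call held with any single library left out, and scaling by library totals instead of TMM gave -0.18 (adjusted p = 0.0607, edgeR). Coq2 lies on chromosome 5 at 100654723 to 100675140 (GRCm38, GENCODE M21, minus strand).

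Coq6, the flavin-dependent monooxygenase that hydroxylates the ring, also fell. Its lowest, median and highest levels were 72.9, 87.8 and 103.3 CPM in cold, and 93.0, 104.8 and 113.5 CPM in ctrl. Again 5 of 6 cold libraries lay below all ctrl libraries, and cold 4 lay among them. The log2 fold change was -0.25 ± 0.08 (SE; adjusted p = 0.0284, edgeR). This call was lost when any of 6 libraries was left out: the adjusted p was 0.0598, 0.0619 and 0.0677 without cold 7, 11 or 15, and 0.0608, 0.0578 and 0.0552 without ctrl 2, 6 or 14 (edgeR). It was 0.0521 with the skeletal muscle markers as a covariate, 0.0692 with no filter on low counts and 0.125 with library totals as scaling. Cold 15, with the highest muscle marker sum, was the lowest cold library for Coq2, Coq5, Coq6, Coq8a, Coq9 and Coq10a, and the part of muscle in this was not tested beyond that covariate. Coq6 lies on chromosome 12 at 84361657 to 84373796 (plus strand), where 177 bases overlap Fam161b on the opposite strand.

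Coq3 is the O-methyltransferase of the pathway, which methylates hydroxyl groups of the ring. It was the member that rose. Its lowest, median and highest levels were 52.0, 58.5 and 62.7 CPM in cold, against 35.7, 42.4 and 48.9 CPM in ctrl. Every cold library lay above every ctrl library, and 16.3% of all genes tested had groups apart in one direction or the other. The log2 fold change was 0.43 ± 0.08, or 1.35-fold (SE; adjusted p = 0.000667, edgeR), larger in size than that of 73.6% of genes tested. Among the alternatives the call was lost in the 5 libraries with mouse numbers up to 8 alone, where the change was 0.38 (adjusted p = 0.14, edgeR). Coq3 lies on chromosome 4 at 21879673 to 21912162 (plus strand).

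Coq5, the C-methyltransferase of the ring, just missed the threshold and was not called. Its lowest, median and highest levels were 125.0, 147.1 and 160.5 CPM in cold, and 113.2, 120.7 and 140.8 CPM in ctrl. All 6 cold libraries lay above the ctrl median, and 4 of them above every ctrl library. On the log2 scale cold differed from ctrl by 0.22 ± 0.08 (SE; adjusted p = 0.0501, edgeR; 95% interval 0.05 to 0.40). It passed without cold 15 (adjusted p = 0.0238) and without ctrl 2 or ctrl 9 (0.0294 and 0.0335), with DESeq2 (0.0264), and with library totals as scaling (0.31, adjusted p = 0.00873). Coq5 lies on chromosome 5 at 115279666 to 115296972 (plus strand).

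Coq7 and Coq4, which act on the ring with Coq3, Coq5 and Coq6, did not pass. Coq7, the second hydroxylase, had lowest, median and highest levels of 87.4, 97.1 and 134.5 CPM in cold, and 83.8, 94.98 and 107.1 CPM in ctrl. Its highest value, in cold 4, stood apart from the other 5 cold libraries, which ended at 97.7 CPM. The log2 fold change was 0.09 ± 0.10 (adjusted p = 0.511, edgeR; 95% interval -0.11 to 0.30), and without cold 4 it was 0.00012. Coq4, shown in human cells to remove the carboxyl group of the ring, was at 18.0, 19.5 and 22.7 CPM in cold and 17.0, 20.6 and 24.3 CPM in ctrl. The groups overlapped throughout (log2 fold change -0.04 ± 0.09, adjusted p = 0.759, edgeR; 95% interval -0.24 to 0.15). Coq4 shares 1010 bases with Trub2 on the opposite strand, which averaged 19.4 CPM, and the sources used here do not say whether strand was used in assigning reads.

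Coq8a, an atypical kinase-like ATPase that supports the assembly of the synthesis enzymes, had the highest read count of the members. Its lowest, median and highest levels were 599.7, 772.1 and 809.9 CPM in cold, and 505.5, 685.3 and 816.7 CPM in ctrl. The ranges covered each other, and the log2 fold change was 0.10 ± 0.11 (adjusted p = 0.537, edgeR; 95% interval -0.14 to 0.34). Coq9, a lipid-binding protein that presents the intermediate to Coq7, was at 350.8, 396.7 and 456.9 CPM in cold, and 359.0, 409.9 and 436.5 CPM in ctrl. Its log2 fold change of -0.00 ± 0.08 (adjusted p = 0.979, edgeR) was smaller in size than that of nearly all genes, since 1.01% of them changed less. The 95% interval, -0.17 to 0.17, bounds what change the 12 libraries allow.

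Coq10a and Coq10b encode related lipid-binding proteins that are thought to chaperone finished coenzyme Q to the respiratory chain. Coq10a had lowest, median and highest levels of 103.0, 122.5 and 151.5 CPM in cold, and 117.6, 150.01 and 196.0 CPM in ctrl. The groups overlapped and 1 of 6 cold libraries lay below all ctrl libraries. The log2 fold change was -0.29 ± 0.11 (adjusted p = 0.0645, edgeR; 95% interval -0.53 to -0.05). It passed without cold 4 (-0.35, adjusted p = 0.0165) and without ctrl 9 (-0.35, adjusted p = 0.0224), and with DESeq2 the adjusted p was 0.0499. Coq10b was at 32.9, 39.5 and 50.6 CPM in cold and 33.3, 42.2 and 48.2 CPM in ctrl, with no direction to its change (-0.01 ± 0.12, adjusted p = 0.976, edgeR; 95% interval -0.25 to 0.24). Cold 4 and cold 7 held its 2 highest cold values, both above 50 CPM. A processed pseudogene, Gm17971, overlaps Coq10b by 806 bases on the same strand at a mean of 0.798 CPM, and reads of this pair could have been split between them.

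**Figure D1:**
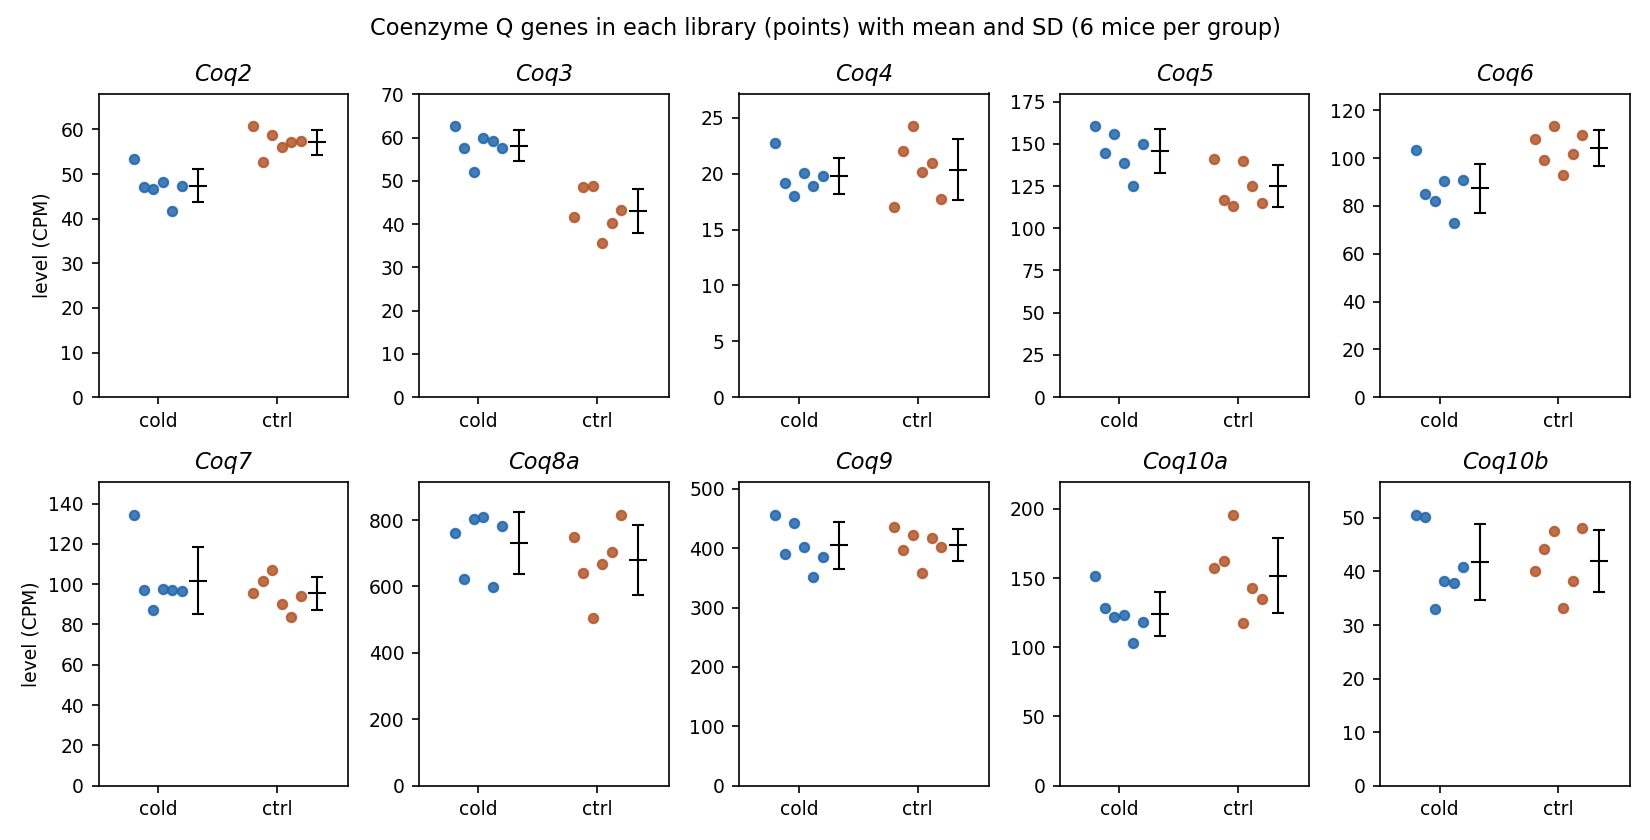
Level in CPM (y axis, from 0) of each of the 10 coenzyme Q genes in the 6 cold and 6 ctrl libraries; points are libraries in order of mouse number, and bars show the mean and SD. Coq3 is the gene whose cold points (52.0 to 62.7 CPM) all lie above its ctrl points (35.7 to 48.9 CPM), and the single high cold point of Coq7 is cold 4 at 134.5 CPM.

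Set against each other per length, the members spanned a wide range of levels. The scale here is CPM per kilobase of effective transcript length, and the values are medians over 6 libraries. In cold the order was Coq8a at 338, Coq9 at 283, Coq7 at 148, Coq10a at 130, Coq5 at 76.4, Coq6 at 64.8, Coq10b at 38.04, Coq2 at 36.4, Coq3 at 28.7 and Coq4 at 15.8. In ctrl it was Coq8a at 298, Coq9 at 285, Coq10a at 155, Coq7 at 134, Coq6 at 75.7, Coq5 at 63.4, Coq2 at 44.5, Coq10b at 37.2, Coq3 at 20.5 and Coq4 at 15.8. Both groups thus had Coq8a and Coq9 at the top and Coq3 and Coq4 at the bottom. Each transcript's reads are divided by its own effective length before summing, so reads given to short transcripts weigh more. Coq8a transcripts of 1224, 453 and 447 nt averaged 52.0, 11.6 and 11.5 CPM in cold, beside 607 CPM for its main transcript of 4026 nt. Cold 4 had 761.5 CPM of Coq8a and yet the lowest cold level per kilobase, 244. The place of Coq8a thus depends on how reads were split between its transcripts, which is an estimate. The ranges of neighbours overlapped in cold for Coq8a with Coq9, Coq7 with Coq10a, Coq5 with Coq6 and Coq10b with Coq2, and these orders are not resolved by the ranges. In ctrl they overlapped for Coq8a with Coq9, Coq10a with Coq7, Coq6 with Coq5, Coq2 with Coq10b and Coq3 with Coq4. Compared within each library, Coq5 lay above Coq6 in all 6 cold libraries, and Coq2 above Coq10b in all 6 ctrl libraries. The other overlapping neighbours kept the order of their medians in 4 or 5 of 6 libraries. Coq3 stood apart from Coq4 in cold, at 26.8 to 30.1 against 14.1 to 18.2 per kilobase. Summed over members, reads came to 1761 ± 161 CPM in cold and 1725 ± 101 CPM in ctrl (SD, n = 6 each).

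**Figure D2:**
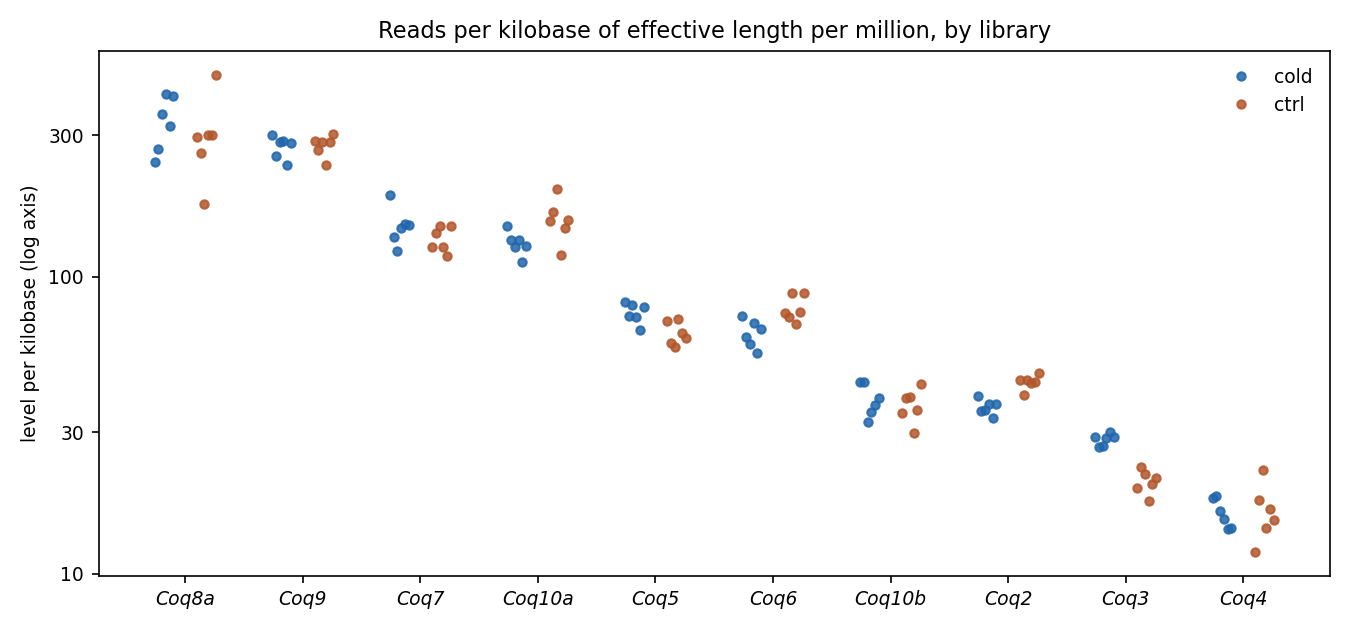
Level per kilobase of effective length (log y axis) of each member in the 6 cold (left) and 6 ctrl (right) libraries, ordered by the cold median. Coq8a and Coq9 lie highest, with medians of 338 and 283 in cold, and Coq4 lowest at 15.8.

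Paralog balance was compared as a share of these per-kilobase levels, 1 value per library. Coq10b made up 20.5%, 23.3% and 25.0% (lowest, median and highest) of Coq10a plus Coq10b in cold, against 16.7%, 19.3% and 21.9% in ctrl. The groups overlapped, and the means differed by 3.63 percentage points (exact two-sided permutation p = 0.0108, adjusted p = 0.013 over the 2 shares tested; n = 6 each). Coq8a made up 96.7%, 98.1% and 98.4% of Coq8a plus its paralog Coq8b in cold, and 94.7%, 96.6% and 97.9% in ctrl, a difference of 1.42 percentage points (exact two-sided permutation p = 0.013, adjusted p = 0.013; n = 6 each). The short transcripts of Coq8a weigh on its share as on its level. Read counts with no length correction gave mean Coq8a shares of 98.0% in cold and 96.8% in ctrl. In the tests of single genes, Coq10a, Coq10b and Coq8a were not called, while Coq8b fell.

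**Figure D3:**
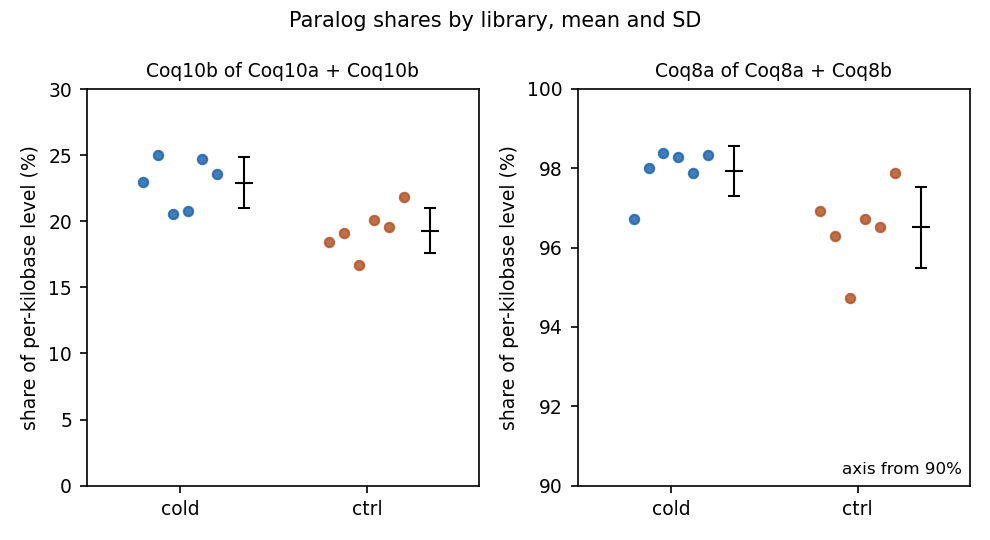
Share of Coq10b in Coq10a plus Coq10b (left, axis from 0) and of Coq8a in Coq8a plus Coq8b (right, axis cut at 90%), in percent of the per-kilobase level, for 6 cold and 6 ctrl libraries with mean and SD. Cold means are 22.9% and 97.9%, against ctrl means of 19.3% and 96.5%.

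A list of 12 held other genes of coenzyme Q synthesis and handling. Of them 5 rose, 2 fell and 5 did not pass, or 58.3% called beside 31.6% of all genes, with a median log2 fold change of 0.16 beside -0.01. The list was chosen with earlier results of these data known, so its called share describes these genes and is no test of the pathway. Hpdl, which in human cells acts on the tyrosine-derived precursor of the ring, was at 24.5, 30.03 and 36.4 CPM in cold (lowest, median and highest), against 9.34, 10.1 and 11.0 CPM in ctrl. Pdss1, a subunit of the tail synthase, was at 25.5, 27.1 and 29.7 CPM in cold, against 11.3, 11.7 and 15.0 CPM in ctrl. Neither gene's groups overlapped. Hpdl rose 3.00-fold (log2 fold change 1.58 ± 0.10, adjusted p = 1.33e-08, edgeR), and Pdss1 rose 2.23-fold, by 1.16 ± 0.08 (adjusted p = 5.74e-08, edgeR). The partner subunit Pdss2 was at 25.5, 27.8 and 30.2 CPM in cold and 22.4, 24.2 and 28.4 CPM in ctrl, and did not pass (0.17 ± 0.07, adjusted p = 0.106, edgeR); it did without ctrl 2 (0.21, adjusted p = 0.0408), with library totals (0.26, adjusted p = 0.0136) and with the mouse number covariate (0.19, adjusted p = 0.0475).

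Pptc7, a mitochondrial phosphatase that acts on Coq7, rose as well. It was at 106.9, 124.9 and 130.8 CPM in cold, against 64.5, 68.2 and 78.3 CPM in ctrl, with no overlap (log2 fold change 0.82 ± 0.07, adjusted p = 3.70e-07, edgeR). Coq8b, the paralog of Coq8a, fell. Its lowest, median and highest levels were 12.4, 14.4 and 18.3 CPM in cold, against 20.9, 21.9 and 24.6 CPM in ctrl, and every cold library lay below every ctrl library (-0.61 ± 0.09, adjusted p = 0.000103, edgeR). Also called, and named after their values were seen, were Adck5 and Fdxr. Adck5, a relative of Coq8a, was at 0.43 (adjusted p = 0.0239, edgeR), with means of 4.22 CPM in cold and 3.15 CPM in ctrl. Its adjusted p was 0.0543 without ctrl 5, 0.0779 with no filter and 0.334 with the effective length offset (edgeR). With mouse numbers up to 8 and above 8 alone it was 0.201 and 0.219 (edgeR). Fdxr, the reductase that feeds electrons to ferredoxins, was at -0.29 (adjusted p = 0.0377, edgeR). Fdxr was not called without cold 7, 11, 12, 15 or 16 or without ctrl 2, 5, 9 or 10 (adjusted p = 0.0638 to 0.0913), which leaves 1 gene lower. Fdx1l, Stard7, Adck1 and Adck2 did not pass.

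**Figure D4:**
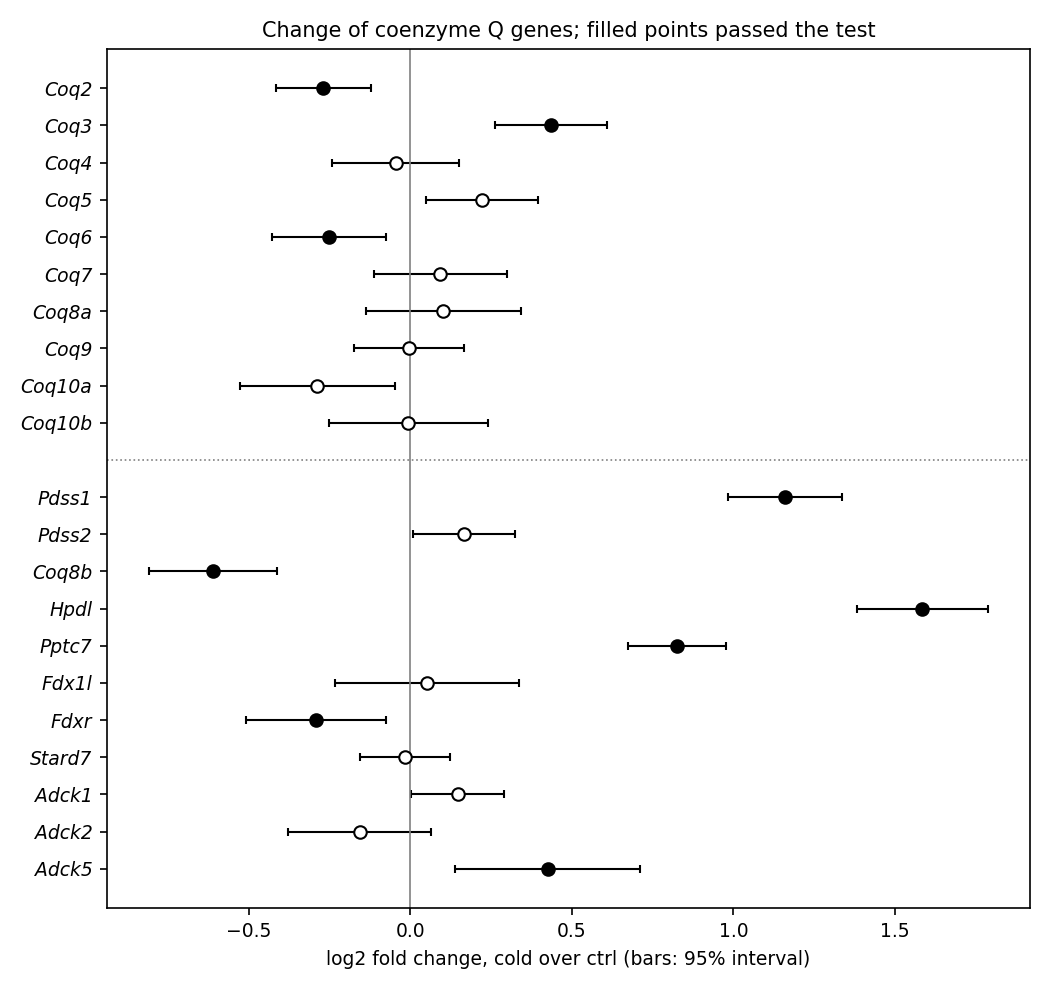
Log2 fold change of cold over ctrl (x axis) with its 95% interval for the 10 members (above the dotted line) and the other genes of the pathway named in the text (below it); filled points passed the test at an adjusted p under 0.05. Members lie between -0.29 and 0.43, whereas Hpdl and Pdss1 lie at 1.58 and 1.16.

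**Figure D5:**
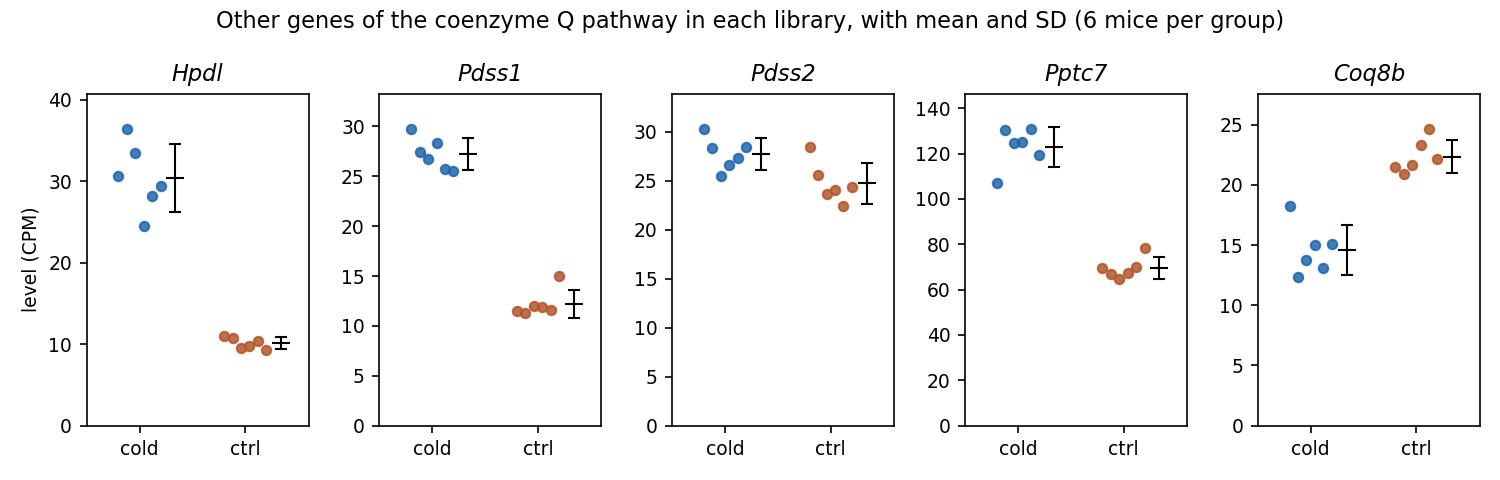
Level in CPM (y axis, from 0) of 5 other genes of the pathway in the 6 cold and 6 ctrl libraries, with mean and SD. Cold and ctrl points are apart for Hpdl, Pdss1, Pptc7 and Coq8b, and overlap for Pdss2.

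The isoprenoid precursors of the tail come from the mevalonate pathway. Of a list of 12 isoprenoid genes, not all of them in that pathway, 3 rose, 3 fell and 6 did not pass. That is 50% called beside 31.6% of all genes (median log2 fold change 0.01 beside -0.01), in a list also chosen with earlier results known. Hmgcs1, which makes HMG-CoA, rose and had medians of 413 CPM in cold and 324 CPM in ctrl (0.34 ± 0.08, adjusted p = 0.00214, edgeR). Nus1, a subunit of the enzyme that makes dolichol, had medians of 62.7 CPM in cold and 50.4 CPM in ctrl (0.31 ± 0.08, adjusted p = 0.00489, edgeR). Pmvk, phosphomevalonate kinase, fell, with medians of 48.9 CPM in cold and 80.1 CPM in ctrl (-0.58 ± 0.14, adjusted p = 0.0066, edgeR). The other genes of this list that fell were Acat2 and Mvk (-0.36 and -0.31), named after their values were seen. Without ctrl 10 the genes that fell numbered 5. Mvk was not called with library totals (adjusted p = 0.0817, edgeR) or with ctrl 2 and cold 15 left out (adjusted p = 0.0847, edgeR). Pmvk was not called with mouse numbers up to 8 alone or above 8 alone (adjusted p = 0.0501 and 0.108, edgeR).

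Among 12 tested enzymes that reduce coenzyme Q, 2 rose, 2 fell and 8 did not pass, or 33.3% called, near the 31.6% of all genes. The 13th listed gene, Prodh2, was under the filter on low counts. Prodh, proline dehydrogenase, was at 29.0, 37.2 and 49.3 CPM in cold, against 15.5, 18.6 and 21.6 CPM in ctrl (1.03 ± 0.13, adjusted p = 2.52e-05, edgeR). The change of Prodh was 0.64 with the effective length offset and 0.66 with mouse numbers up to 8 alone, and passed in both (adjusted p = 0.00394 and 0.0313, edgeR). Etfdh, which passes electrons of fatty acid oxidation to coenzyme Q, was at 916.9, 962.2 and 1018 CPM in cold, against 649.1, 807.8 and 859.0 CPM in ctrl (0.29 ± 0.08, adjusted p = 0.00985, edgeR). Chdh, choline dehydrogenase, and Sqor, sulfide quinone oxidoreductase, fell, with medians of 44.1 and 20.6 CPM in cold, against 111.8 and 43.3 CPM in ctrl. Their log2 fold changes were -1.23 ± 0.13 and -1.05 ± 0.08 (adjusted p = 5.53e-06 and 6.33e-08, edgeR). In this list 5 genes had cold and ctrl apart, these 4 and Sdha, beside 16.3% of all genes. Sdha, a subunit of complex II, was lower in all 6 cold libraries than in any ctrl library; it was not called by edgeR (-0.16, adjusted p = 0.0841) and was called by DESeq2 (-0.16, adjusted p = 0.0135). The other complex II subunits were not called by edgeR over all 12 libraries, and without cold 4 the enzymes that fell numbered 5, with Sdhb and Sdhc among them (-0.33 and -0.21).

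Of 10 genes of complex III, which oxidises coenzyme Q, 3 fell and 7 did not pass, or 30% called, beside 31.6% of all genes called and 15.4% called lower. The subunit of mitochondrial DNA, mt-Cytb, had medians of 14779 CPM in cold and 23201 CPM in ctrl (-0.73 ± 0.11, adjusted p = 8.44e-05, edgeR). The nuclear Uqcrc1, a core protein, and Cyc1, cytochrome c1, were at -0.27 ± 0.09 and -0.28 ± 0.10 (adjusted p = 0.029 and 0.0403, edgeR). Neither of these held throughout: the adjusted p of Uqcrc1 was 0.052 to 0.0748 without cold 7, 11, 12, 15 or 16 or ctrl 2, 5 or 6, and that of Cyc1 was 0.055 to 0.0899 without those or ctrl 10. Without cold 4, which had the highest cold value of both, 6 of the 10 genes fell, as did 2481 of 14035 genes tested. Ppargc1a, a coactivator of mitochondrial gene programmes, rose in the same libraries, at 224 to 411 CPM in cold against 44.4 to 63.5 CPM in ctrl (2.55 ± 0.16, adjusted p = 3.08e-08, edgeR).

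The transcripts behind the members were mostly single dominant forms. GENCODE lists 69 transcripts for the 10 genes, of which 66 had reads and 39 passed the filter on low counts. Of the 39, 1 was called, the main protein-coding transcript of Coq3, which was higher in cold (0.46 ± 0.08, adjusted p = 0.00367, edgeR). Of all 30345 transcripts tested 10.3% were called, and 6.21% were called higher. The Coq3 transcript held 99.9% of Coq3 reads in cold and 99.8% in ctrl, so the gene and this transcript are the same measurement. The main transcripts of Coq5, Coq10b, Coq7, Coq2 and Coq9 held 99.6%, 99.2%, 97.9%, 97.4% and 95.9% of their genes' reads in cold, and 99.6%, 98.7%, 97.2%, 96.0% and 95.9% in ctrl. That of Coq6 held 91.6 ± 0.88% in cold and 87.3 ± 4.37% in ctrl (SD, n = 6 each). This main Coq6 transcript changed by -0.15 ± 0.08 and was not called (SE, adjusted p = 0.324, edgeR), beside -0.25 for the gene.

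Reads were more spread out over transcripts for Coq8a, Coq10a and Coq4. The main Coq8a transcript (4026 nt) held 82.3 ± 9.46% of Coq8a reads in cold and 82.0 ± 2.69% in ctrl. A second protein-coding transcript (3928 nt) took 0% to 29.5% in cold and 2.27% to 12.4% in ctrl, and how reads were split between transcripts of a gene is an estimate. The main Coq10a transcript (1434 nt) held 79.3 ± 6.16% in cold and 82.0 ± 5.77% in ctrl, while another protein-coding one (1421 nt) held 4.15 ± 1.77% in cold and 1.41 ± 1.21% in ctrl. The main Coq4 transcript held 67.2 ± 9.91% in cold and 72.4 ± 11.2% in ctrl. Unequal change of transcripts within a gene could be tested for 7 members, and 0 of 7 were called by edgeR's diffSpliceDGE gene test, with 0 at an unadjusted p under 0.05, beside 1.45% of 7233 genes called. The Simes form of the test called 0 of 7 as well.

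Within groups the members tended to vary together from animal to animal. With each group's mean removed, Pearson's r of log2 CPM over the 12 libraries was above 0 for 37 of 45 pairs of members, with a median of 0.378. The libraries share depth, tissue makeup and mouse number across genes, so these values describe the libraries and carry no test. The highest was that of Coq2 with Coq6, the pair that fell in cold, at 0.874, and the lowest that of Coq3 with Coq5, at -0.57. Among other genes, the closest to Coq2 were Mecr, Fh1 and Poc1a (r = 0.943, 0.928 and 0.926). The closest to Coq3 were Srsf6, Ucp1 and Lamp1 (0.933, 0.924 and 0.921). The closest to Coq6 were Cd302, Mtmr14 and Spcs1 (0.934, 0.918 and 0.913).

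Levels by mouse number were compared within each group, and Coq10a was apart between low and high numbers in both. Coq10b was at 50.2 and 50.6 CPM in cold mice 7 and 4, against 32.9 to 40.8 CPM in the 4 cold mice above number 8, while ctrl mice covered 40.2 to 47.6 CPM up to number 8 and 33.3 to 48.2 CPM above it. The ctrl ranges of Coq10b thus overlapped. Coq10a averaged 140 CPM in the 2 cold and 172 CPM in the 3 ctrl mice up to number 8, and 117 CPM in the 4 cold and 132 CPM in the 3 ctrl mice above it. Within either set, Coq3 was higher in cold (60.1 against 46.3 CPM, and 57.2 against 39.7 CPM), and Coq2 was lower (50.3 against 57.4 CPM, and 46.0 against 56.9 CPM). With the set as a covariate, Coq2, Coq3 and Coq6 remained called and Coq5 and Coq10a passed as well (0.23 and -0.23, adjusted p = 0.0404 and 0.0416, edgeR). The labels name no batch, and what separates the mouse numbers was not tested.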

How the data were processed

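PolyA RNA of 12 brown fat samples was analysed. The authors deposited 1 table per animal with estimated counts and TPM for 140658 transcripts, per the file headers, and bcl2fastq, cutadapt, Salmon and GRCm38 are named without versions, per the submitters' processing notes. No source used here names the annotation behind the Salmon index. TPM as deposited by the authors were not used for tests. Transcripts were tied to GENCODE M21 genes by identifier without version; 140137 matched, and the other 521 held 0.0866% to 0.152% of reads. Between 29.5% and 32.6% of the deposited estimated counts were not whole (tolerance 1e-06), and sums were rounded. Transcript length and effective length are in nucleotides, per the file headers, and gave the levels per kilobase.

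Low genes and transcripts were dropped by filterByExpr (minimum count 10). After TMM scaling, edgeR's quasi-likelihood test (robust, two-sided) was run, with a Benjamini-Hochberg threshold of 0.05. SE is the log2 fold change divided by the root of the F statistic. The biological coefficient of variation was 20.6%. Mouse numbers differ between groups, so animals were not paired. The members, lists and tests were chosen with earlier results of these data known. Named genes were all members, up to 4 called genes of smallest p per list, Pdss1, Pdss2, Coq8b, Ppargc1a, and the 3 genes most correlated with each called member (mean log2 CPM of at least 2); some genes that the rule names are counted in their lists and not reported here. Alternatives were RLE and library totals as scaling, DESeq2, limma-voom, no filter, a mean of at least 1 CPM, an effective length offset, a skeletal muscle covariate, mouse numbers up to 8 or above as a covariate or alone, mitochondrial genes left out, the Simes test, other lengths for paralog shares, and each library left out. The tests were tried on simulated counts. Promoters are from RefSeq, GRCm38.p6. Statistics ran in R 4.3.3 (edgeR 4.0.16, limma 3.58.1, DESeq2 1.42.0). Tables and plots were made in Python 3.11.15 with pandas 2.3.3, SciPy 1.17.1, matplotlib 3.10.9 and NumPy 2.4.6.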

Additional observations from a re-analysis of the deposited data

Results flagged for a closer look

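Of 64 groups of 6 libraries looked at, 6 had a highest or lowest library whose gap to its neighbour exceeded Dixon's critical share of the range; chance flags about 1 group in 20. Cold 4 was behind 5 of the 6. It had the highest cold value of Coq7 (134.5 CPM, next 97.7), of Uqcrc1 (1487 CPM, next 1191), of Cyc1 (1066 CPM, next 792.8) and of the summed brown adipocyte markers (18116 CPM, next 15361.5). It had the lowest cold share of Coq8a in Coq8a plus Coq8b (96.7%, next 97.9%). Cold 4 was also the deepest library, at 31423954 reads. Ctrl 14 had the highest ctrl value of Pdss1, 15.0 CPM against 12.0 CPM for the next library.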

How the results depend on the processing

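Over all genes, 2246 calls were higher in cold and 2134 were lower. Library totals as scaling gave 2895 higher and 1409 lower genes and moved the median log2 fold change of all genes to 0.08, against -0.01. Mouse numbers up to 8 alone, with 2 cold and 3 ctrl mice, gave 600 higher and 392 lower, and each library left out gave 2023 to 2605 higher and 1836 to 2481 lower. Members that rose numbered 1, and 2 (Coq3 and Coq5) with DESeq2, RLE scaling, library totals, ctrl 2 and cold 15 left out, mitochondrial genes left out, and the mouse number and skeletal muscle covariates, and 0 with mouse numbers up to 8 alone. Members that fell numbered 2, and 3 with DESeq2 and the mouse number covariate (Coq10a added), 1 with ctrl 2 and cold 15 left out, no filter and the skeletal muscle covariate, and 0 with library totals and with mouse numbers up to 8 alone. Each library left out gave 1 to 2 higher and 1 to 3 lower members. Called member transcripts numbered 1, and 2 with library totals and with a mean of at least 1 CPM, and 1 to 3 with each library left out. No member was called for usage under any alternative run. The paralog differences kept direction and call under every alternative run, at 2.86 to 4.15 points for Coq10b and 1.07 to 1.70 points for Coq8a.

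The members Coq4, Coq9 and Coq10b, not called under any setting, had changes that crossed 0. Coq4 was at 0.039 with library totals and at -0.086 to 0.012 with each library left out. Coq9 was at 0.087 with library totals, 0.0091 with no filter, 0.015 with the muscle covariate, 0.012 with the mouse number covariate, 0.022 and 0.0040 with mouse numbers up to and above 8 alone, 0.057 with ctrl 2 and cold 15 left out, and -0.038 to 0.036 with each library left out. Coq10b was at 0.083, 0.0063, 0.045, 0.029 and 0.20 with library totals, no filter, the muscle covariate, the mouse number covariate and mouse numbers up to 8 alone, at -0.095 with mouse numbers above 8 alone, at 0.063 with the effective length offset, at 0.0091 with ctrl 2 and cold 15 left out, and at -0.066 to 0.055 with each library left out. The cause of these differences was not tested. No paired analysis was possible because the mouse numbers of the groups do not overlap. The 12 libraries limit what can be said of changes of the size at which Coq2, Coq5, Coq6 and Coq10a lie.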
